A study of Mus musculus with 7 samples.

Results

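The genes described here are 10 genes grouped as driven by serum response factor (SRF), which encode calponins, actins and other proteins of actin filaments. They are Cnn1, Cnn2, Cnn3, Tagln, Acta2, Actg2, Myl9, Tpm1, Tpm2 and Srf itself, 10 of the 22180 genes measured. They were taken by symbol from the platform annotation. The probe set of each was chosen by its mean log2 signal over the 7 arrays, the highest being kept, and each gene had 1 probe set. The list was drawn up with results of these data known, so its differences are a description and the p-values given with them are not independent evidence.

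SRF binds a short DNA element called the CArG box. Its coactivators MRTF-A and MRTF-B are held in the cytoplasm by actin monomers and move to the nucleus when filaments assemble, so that cells with more filamentous actin make more filament proteins. Dividing myoblasts express several genes of this group that are better known from smooth muscle, Acta2 and Tagln among them.

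RNA came from C2C12, an established line of mouse skeletal myoblasts, grown in serum-rich medium and transfected with an siRNA against G9a (siG9a, 3 arrays), an siRNA against GLP (siGLP, 2 arrays) or a control siRNA (Control, 2 arrays). Ehmt2 is the gene of G9a and Ehmt1 that of GLP, 2 similar enzymes that put methyl groups on lysine 9 of histone H3. The study asked how the roles of both in myoblasts differ. Each sample was hybridised to 1 Affymetrix whole transcript array, and values are log2 signal per probe set after RMA, so that 1 unit is a doubling. The labels give the siRNA as the only difference between groups and do not say whether replicates came from separate cultures. The p-values thus cover the spread among the 7 arrays, possibly technical, whose number limits the precision.

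Ehmt2 fell in siG9a to 38.8% of Control (a log2 change of -1.37, SE 0.10, with limma adjusted p = 0.0308 by Benjamini-Hochberg). Ehmt1 stood at 58.0% of Control in siGLP, a log2 change of -0.79 (SE 0.14). Its siGLP arrays lay below the Control arrays without overlap, as held for 16.9% of all genes. It did not pass with adjustment over all genes (limma adjusted p = 0.197), so the knockdown of GLP is not shown at that 0.05 threshold. Off-target effects of the siRNAs were not tested. Of 8 myoblast markers none lay below the median of all probe sets, and 7 of 8 were lower than Control in each knockdown, against 48.0% of all genes in siG9a and 49.2% in siGLP. Their summed signal, which desmin (Des) leads, was 11.84 to 11.95 in siG9a, 11.82 to 11.84 in siGLP and 12.00 to 12.01 in Control (log2). Single markers moved more than this sum. Myod1 averaged 6.95 in siG9a, 7.63 in siGLP and 7.63 in Control, and Cdh15 differed from Control by -0.51 in each knockdown. Neither passed against Control (limma adjusted p at least 0.146). Of 6 smooth muscle markers 1 lay below that median, and 5 were lower than Control in siG9a and 6 in siGLP, by 0.20 or less on the log2 scale. Smtn averaged 8.46 in siG9a, 8.34 in siGLP and 8.48 in Control, while Synpo2 and Lmod1 averaged 5.92 or less in each group. Myh11 averaged 4.86 in siG9a, 4.88 in siGLP and 4.90 in Control, and Myocd, the smooth muscle and heart coactivator of SRF, averaged 4.59 in siG9a, 4.49 in siGLP and 4.53 in Control. The summed smooth muscle list, which desmin (Des) leads and which shares Des with the myoblast list, was 11.20 to 11.30 in siG9a, 11.10 to 11.21 in siGLP and 11.32 to 11.35 in Control. Of 6 fibroblast markers none lay below the median of all probe sets, and their summed signal was 11.52 to 11.66 in siG9a, 11.40 to 11.43 in siGLP and 11.53 to 11.64 in Control. Below that median lay 3 of 8 myotube, 3 of 4 leukocyte, 4 of 4 endothelial and 3 of 4 epithelial markers. Of the myotube markers 4 were lower and 4 higher than Control in each knockdown. Among them Mymk differed by -0.29 in siG9a and -0.71 in siGLP (limma adjusted p = 0.184 and 0.133). In bulk RNA, fewer cells of a type and less RNA per cell cannot be told apart. The part of these marker differences in the results below was not tested.

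The 10 genes did not move as a group. In siG9a, Cnn1 and Tagln were far below both other groups while the other 8 differed from Control by 0.12 or less on the log2 scale. In siGLP, Cnn2, Cnn3 and Myl9 lay below Control and Cnn1 and Actg2 above it, and the largest of these differences was 0.39 in size. Srf, Acta2, Tpm1 and Tpm2 stayed within 0.08 of the compared group in every comparison. The median log2 difference of the 10 genes was -0.041 in siG9a minus Control (all genes 0.005). It was 0.000 in siGLP minus Control (all genes 0.001) and 0.047 in siGLP minus siG9a (all genes -0.004).

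**Figure D1:**
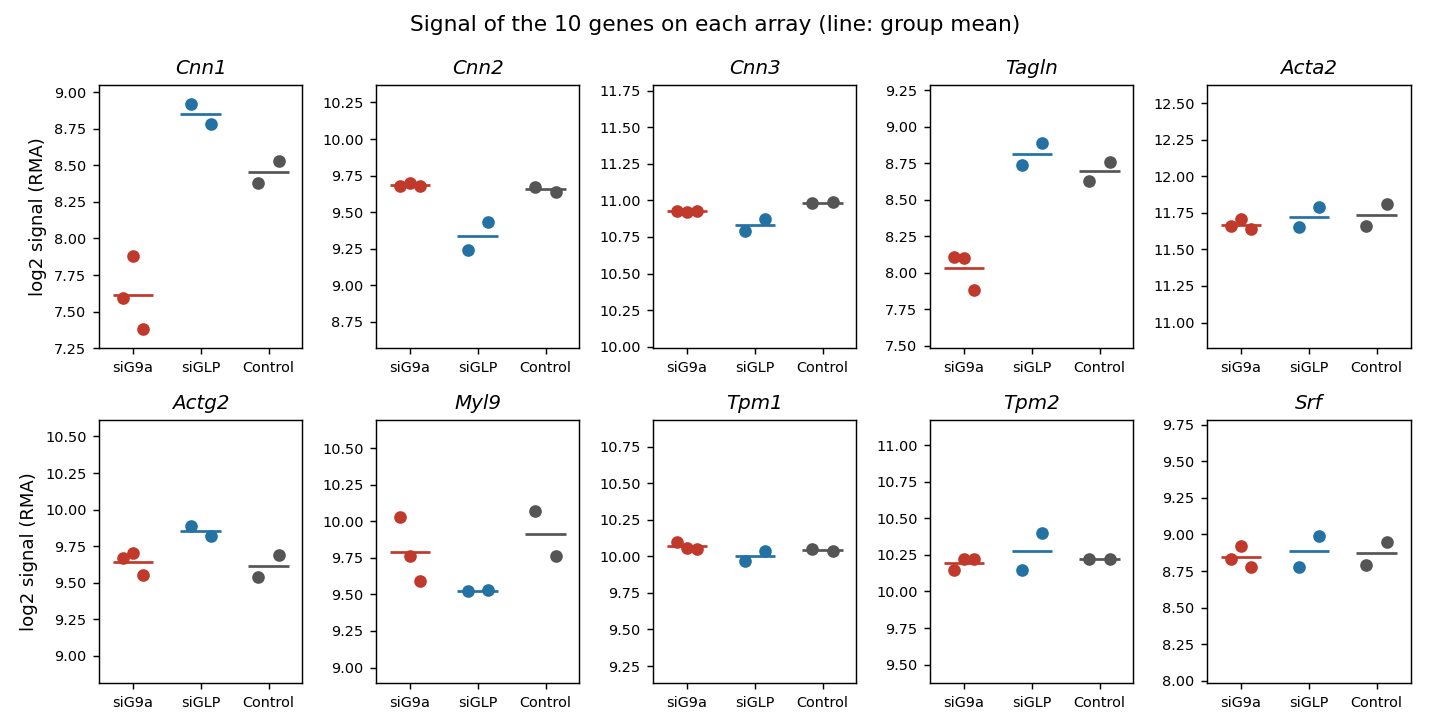
The log2 signal (RMA) of the 10 genes on each array, with siG9a (3 arrays, red), siGLP (2 arrays, blue) and Control (2 arrays, grey), a point per array and a line at each group mean; all panels span the same number of log2 units. The siG9a arrays lie below all others for Cnn1 and Tagln, and the siGLP arrays lie below all others for Cnn2, Cnn3 and Myl9. The points of Cnn3, Acta2, Tpm1, Tpm2 and Srf lie close together.

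At a limma adjusted p under 0.05 (Benjamini-Hochberg), 0 of the 10 passed in siG9a minus Control, where 0.0271% of all genes were called, and 0 in siGLP minus Control, where 0.00451% were called. In siGLP minus siG9a 2 passed, Cnn1 and Tagln, where 0.234% of all genes were called. An unadjusted limma p under 0.05 was reached by 2 lower genes (background 4.57% of all genes) and 0 higher genes (5.95%) in siG9a minus Control. In siGLP minus Control it was reached by 3 lower genes (4.13%) and 2 higher genes (4.51%). In siGLP minus siG9a it was reached by 1 lower gene (6.57%) and 3 higher genes (5.87%), 4 of 10 against 12.4% in either direction. The comparisons with Control share the same 2 Control arrays, the 2 that involve siG9a share its 3 arrays, and the 2 that involve siGLP share its 2 arrays.

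Promoter windows of RefSeq (build GRCm38.p6), 250 bases before to 50 after the start site, were matched by symbol for 8 of the 10 genes, and Tagln and Actg2 had no entry. A CArG box without mismatch was found in 3 of the 8, Srf, Cnn2 and Myl9, against 1.57% of 27025 promoters of the same length (1 per gene). With up to 1 mismatch, 5 of the 8 held a box, Acta2 and Tpm1 being the others, against 21.4% of all promoters. The pattern is the same on both strands, so that 1 scan covers both, and a match is a description and not a binding site. The genes were grouped as driven by SRF beforehand, so a share above that of all promoters is not independent evidence for the grouping. The stretches below show where these matches to the SRF element lie, in capitals with up to 1 mismatch, 5′ to 3′ on the strand of the gene. They lie at chr17:46556163-46556264 (minus strand) for Srf, with 3 boxes of which 2 match exactly, at chr10:79988524-79988583 (plus strand) for Cnn2, with 1 exact box, at chr2:156775283-156775404 (plus strand) for Myl9, with 2 boxes of which 1 is exact, and at chr19:34255374-34255477 (minus strand) for Acta2, with 2 boxes of 1 mismatch each.
Srf: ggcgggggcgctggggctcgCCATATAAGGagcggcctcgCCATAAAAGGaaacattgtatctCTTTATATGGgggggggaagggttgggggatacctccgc
Cnn2: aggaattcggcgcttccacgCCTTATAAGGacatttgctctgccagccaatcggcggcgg
Myl9: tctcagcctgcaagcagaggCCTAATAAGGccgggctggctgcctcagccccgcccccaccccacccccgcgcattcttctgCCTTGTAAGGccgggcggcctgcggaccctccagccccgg
Acta2: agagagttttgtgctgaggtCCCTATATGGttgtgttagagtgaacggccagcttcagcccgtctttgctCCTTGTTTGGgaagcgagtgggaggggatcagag

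The Cnn1 window held no box with up to 1 mismatch, and its 250 bases before the start site, chr9:22099003-22099252 (plus strand), are shown because Cnn1 had the largest differences of the 10 genes. Nothing is in capitals there. The window says nothing about SRF sites elsewhere in the gene.
Cnn1: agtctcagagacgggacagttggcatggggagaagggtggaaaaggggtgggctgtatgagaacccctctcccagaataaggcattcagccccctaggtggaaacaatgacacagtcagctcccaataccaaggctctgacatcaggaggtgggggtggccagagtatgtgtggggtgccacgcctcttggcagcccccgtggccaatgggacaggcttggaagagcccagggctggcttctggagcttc
The MCAT element (GGAATG on either strand), which TEAD factors bind, occurred in the Acta2 and Tpm1 windows, 2 of the 8, against 14.6% of all promoters.

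Cnn1 encodes calponin 1, a protein of smooth muscle that binds actin filaments and inhibits the myosin ATPase. Its log2 signal was 7.59, 7.88 and 7.38 on the siG9a arrays, 8.92 and 8.78 on the siGLP arrays, and 8.38 and 8.53 on the Control arrays. The 3 groups did not overlap, with siG9a lowest, Control between and siGLP highest. In siGLP Cnn1 was 2.35-fold higher than in siG9a (log2 difference 1.23, SE 0.15, 95% interval 0.89 to 1.58; limma adjusted p = 0.0409). In siG9a it stood at 56.0% of Control (log2 difference -0.84, SE 0.15, 95% interval -1.18 to -0.49) and did not pass (limma adjusted p = 0.138). It ranked 11 of 22180 from the lowest difference of that comparison and 117 by p. In siGLP it stood at 131% of Control (log2 difference 0.39, 95% interval 0.02 to 0.77; limma adjusted p = 0.559), which did not pass.

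Tagln encodes transgelin, a small relative of the calponins that also binds actin filaments and is an early marker of the smooth muscle lineage. Its log2 signal was 8.11, 8.10 and 7.88 on the siG9a arrays, 8.74 and 8.89 on the siGLP arrays, and 8.63 and 8.76 on the Control arrays. The siG9a arrays lay below the other 4, and the siGLP and Control arrays overlapped. In siGLP Tagln was 1.72-fold higher than in siG9a (log2 difference 0.78, SE 0.099, 95% interval 0.55 to 1.02; limma adjusted p = 0.0478). In siG9a it stood at 63.0% of Control (log2 difference -0.67, SE 0.099, 95% interval -0.90 to -0.43) and likewise did not pass (limma adjusted p = 0.108; rank 58 by p). In siGLP it differed from Control by 0.12 (95% interval -0.14 to 0.38; limma adjusted p = 0.826).

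The calls of Cnn1 and Tagln in siGLP minus siG9a rested on the full set of arrays and on the design of the fit. Both were lost with only the siGLP and siG9a arrays in the fit (limma adjusted p = 0.16 for each) and with the replicate number as a block (0.178 for each). Leaving out either Control array gives that same fit of the siGLP and siG9a arrays for this comparison. The block gives the same differences as leaving out siG9a 3, the only array with that number. These settings are thus not separate checks. Without any single array, Control arrays included, neither passed: the limma adjusted p lay between 0.0831 and 0.291 for Cnn1 and between 0.126 and 0.249 for Tagln, with log2 differences of 1.11 to 1.36 and 0.71 to 0.86. When genes under the median level were left out, a change that tests fewer genes, both passed in siG9a minus Control too (limma adjusted p = 0.047 for Cnn1 and 0.0346 for Tagln).

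**Figure D2:**
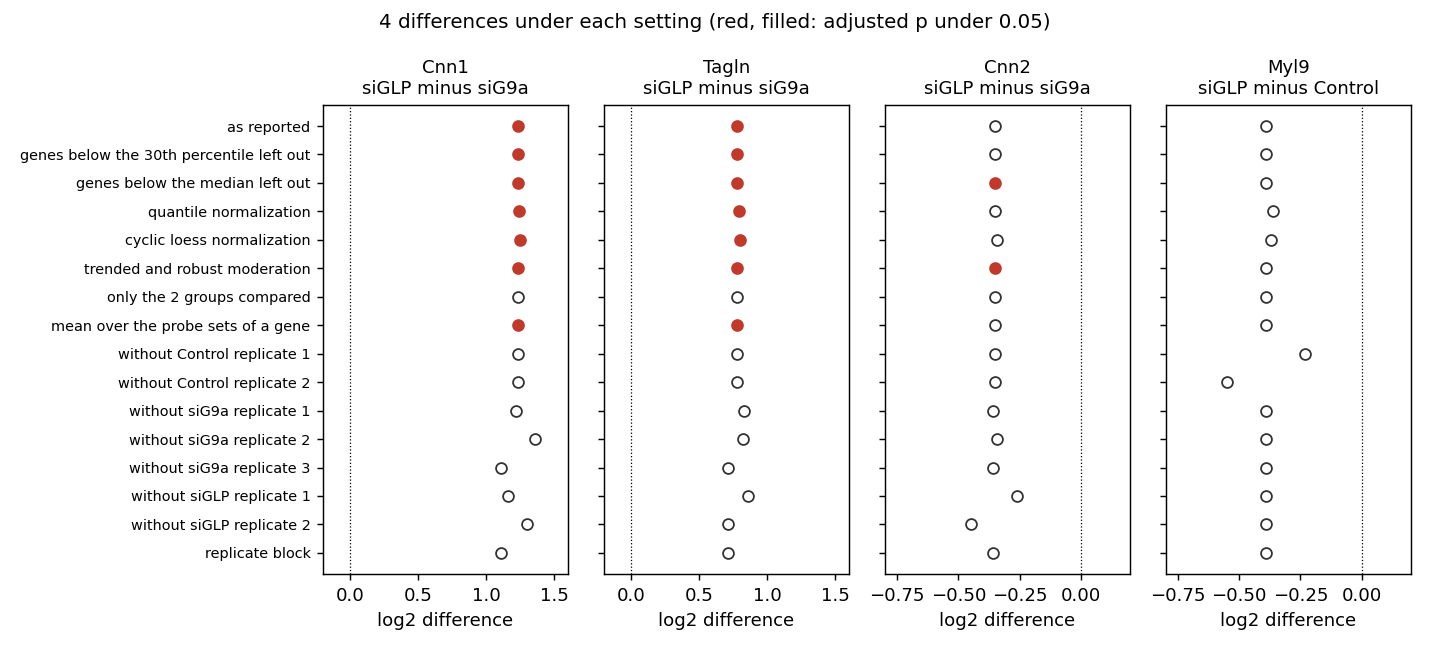
The log2 differences of Cnn1, Tagln and Cnn2 in siGLP minus siG9a and of Myl9 in siGLP minus Control as reported and under each other setting; red filled points mark a limma adjusted p under 0.05. Cnn1 ranges from 1.11 to 1.36 and Tagln from 0.71 to 0.86, and no point is red when an array is left out.

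**Figure D3:**
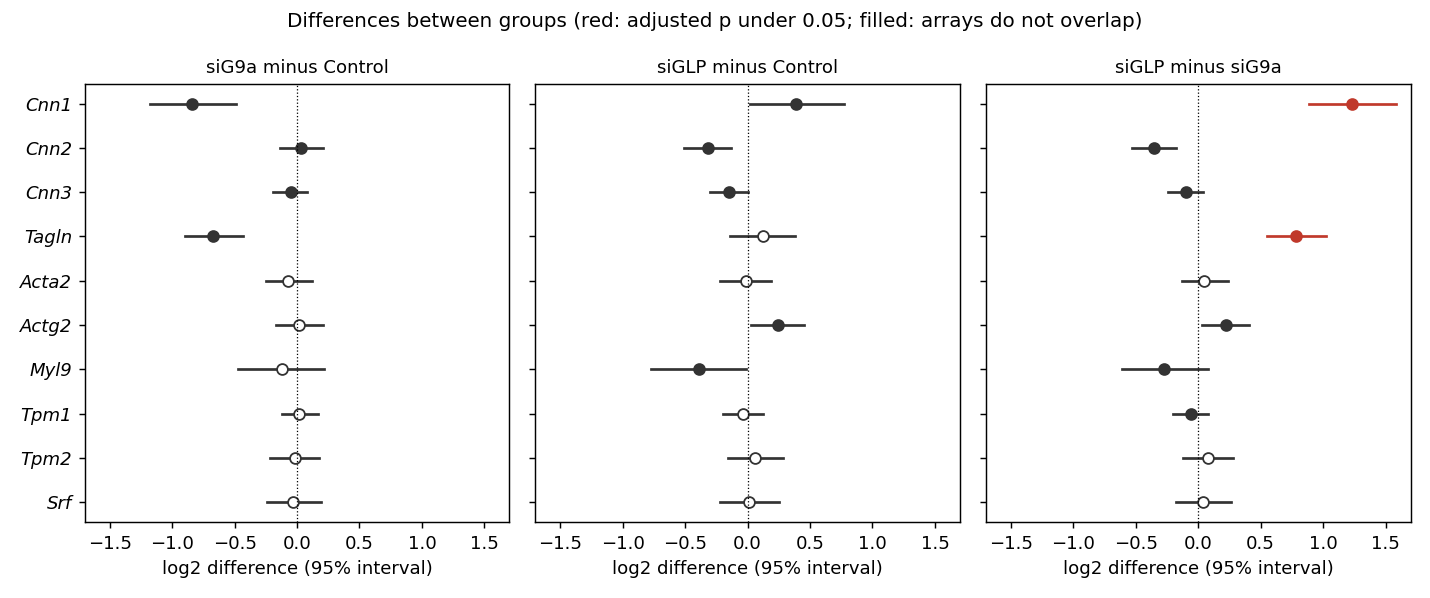
Log2 differences of the 10 genes (points) with 95% intervals from the limma fit (lines) for 3 comparisons, 1 per panel; red marks an adjusted p under 0.05 and filled points mark arrays that do not overlap between the groups. Cnn1 (1.23) and Tagln (0.78) in siGLP minus siG9a are the red points, and the intervals of Srf, Acta2, Tpm1 and Tpm2 include 0 in all panels.

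The other calponins were lowest in siGLP. Cnn2 encodes calponin 2, which is found in smooth muscle and in many nonmuscle cells. Its log2 signal was 9.68, 9.70 and 9.68 on the siG9a arrays, 9.24 and 9.43 on the siGLP arrays, and 9.67 and 9.64 on the Control arrays. The siGLP arrays lay below all others. The difference was -0.32 in siGLP minus Control (SE 0.079, 95% interval -0.51 to -0.13; limma adjusted p = 0.316) and -0.35 in siGLP minus siG9a (SE 0.072, 95% interval -0.53 to -0.18; limma adjusted p = 0.119), and neither passed. When genes under the median level were left out the siGLP minus siG9a difference passed (limma adjusted p = 0.0423), as it did with trended, robust variance moderation (0.0379). In siG9a minus Control Cnn2 differed by 0.03 (95% interval -0.14 to 0.21).

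Cnn3 encodes the acidic calponin, the form best known from nonmuscle cells. Its log2 signal was 10.93, 10.92 and 10.93 on the siG9a arrays, 10.79 and 10.87 on the siGLP arrays, and 10.98 and 10.99 on the Control arrays. The order was siGLP, siG9a, Control from low to high with no overlap, within a total range of 0.19. The difference was -0.15 in siGLP minus Control (95% interval -0.30 to 0.00; limma adjusted p = 0.579) and -0.05 in siG9a minus Control (95% interval -0.19 to 0.08; limma adjusted p = 0.784).
Thus Cnn1 was lowest in siG9a and highest in siGLP, while Cnn2 and Cnn3 were lowest in siGLP. The siG9a minus Control differences of Cnn2 (0.03) and Cnn3 (-0.05) had 95% intervals that include 0, so the order of these 2 groups is not shown for either gene. The transgelin relatives Tagln2 and Tagln3 differed by 0.05 each in siG9a minus Control and by -0.05 and 0.07 in siGLP minus Control, with a limma adjusted p of at least 0.836.

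Acta2 encodes the alpha actin of vascular smooth muscle. Its log2 signal was 11.66, 11.71 and 11.64 on the siG9a arrays, 11.65 and 11.79 on the siGLP arrays, and 11.66 and 11.81 on the Control arrays. All groups overlapped. The difference was -0.07 in siG9a minus Control (95% interval -0.25 to 0.12) and -0.01 in siGLP minus Control (95% interval -0.22 to 0.19), a value that turned to 0.0060 and 0.0078 under 2 further normalizations.
Actg2, the gamma actin of visceral smooth muscle, had a log2 signal of 9.67, 9.70 and 9.55 on the siG9a arrays, 9.89 and 9.82 on the siGLP arrays, and 9.54 and 9.69 on the Control arrays. Both siGLP arrays lay above all others. The difference was 0.24 in siGLP minus Control (SE 0.087, 95% interval 0.03 to 0.45; limma adjusted p = 0.511), 0.22 in siGLP minus siG9a (95% interval 0.03 to 0.41; limma adjusted p = 0.336) and 0.02 in siG9a minus Control. None of these passed. Actin genes are near-identical in coding sequence and where the probes lie was not analysed here, so signal shared between actin genes cannot be told apart.

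Of the other 4 actins, the cytoplasmic genes Actb and Actg1 lay within 0.08 of Control in both knockdowns (Actb 0.08 in siG9a and 0.06 in siGLP, Actg1 -0.02 in each). The skeletal gene Acta1 differed by -0.07 in siG9a (SE 0.24) and 0.08 in siGLP (SE 0.26). Actc1, the cardiac actin gene that embryonic skeletal muscle also uses, averaged 3.94 in siG9a, 4.20 in siGLP and 4.54 in Control, differences from Control of -0.61 in siG9a and -0.35 in siGLP that did not pass (limma adjusted p = 0.251 and 0.671). Its level lay near or below the median of all probe sets (4.54 to 4.59 over the 7 arrays).

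Myl9 encodes a regulatory light chain of smooth muscle and nonmuscle myosin, the subunit whose phosphorylation starts contraction. Its log2 signal was 10.03, 9.76 and 9.59 on the siG9a arrays, 9.52 and 9.53 on the siGLP arrays, and 10.07 and 9.76 on the Control arrays. The siGLP arrays were the lowest, while siG9a and Control overlapped and each spread over 0.3 or more. The difference was -0.39 in siGLP minus Control (SE 0.16, 95% interval -0.77 to -0.01; limma adjusted p = 0.564) and did not pass. It was -0.23 without Control 1 and -0.55 without Control 2. In siG9a minus Control it was -0.12 (95% interval -0.47 to 0.22).
Among the related light chains, Myl12b, another regulatory chain, averaged 9.45 in siG9a, 8.83 in siGLP and 9.06 in Control. Its siGLP minus siG9a difference of -0.62 (SE 0.12) had a limma adjusted p of 0.112. Myl6, the essential light chain, averaged 9.98 in siG9a, 9.68 in siGLP and 9.94 in Control (siGLP minus Control -0.26, limma adjusted p = 0.531), and Myl12a lay within 0.01 of every compared group. Myl6b, another essential chain, ran the other way from Myl12b and Myl6 in siGLP minus siG9a, averaging 6.48 in siGLP, 6.17 in siG9a and 6.40 in Control (siGLP minus siG9a 0.32, SE 0.14; limma adjusted p = 0.416). That difference was -0.30 for Myl6 (limma adjusted p = 0.261). None of these passed.

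Tropomyosins lie along the actin filament and govern access of myosin and other binders. Tpm1 had a log2 signal of 10.10, 10.06 and 10.05 on the siG9a arrays, 9.97 and 10.04 on the siGLP arrays, and 10.05 and 10.04 on the Control arrays. Its differences were 0.02 in siG9a minus Control (95% interval -0.12 to 0.17) and -0.04 in siGLP minus Control (95% interval -0.20 to 0.12). Tpm2 had 10.15, 10.22 and 10.22 on the siG9a arrays, 10.15 and 10.40 on the siGLP arrays, and 10.22 and 10.22 on the Control arrays. Its value was identical on 4 of the 7 arrays, among them both Control arrays, so that the spread in Control is 0 and its interval rests on the spread of the other groups and of other genes. The differences of Tpm2 were -0.02 in siG9a minus Control (95% interval -0.22 to 0.18; 0.0029 after quantile normalization) and 0.06 in siGLP minus Control (95% interval -0.16 to 0.28). The nonmuscle relatives Tpm3 and Tpm4 differed by -0.22 and -0.13 in siGLP minus Control and by -0.08 and 0.05 in siG9a minus Control, and none passed (limma adjusted p at least 0.631).

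Srf, the transcription factor itself and a known target of its own product, had a log2 signal of 8.83, 8.92 and 8.78 on the siG9a arrays, 8.78 and 8.99 on the siGLP arrays, and 8.79 and 8.95 on the Control arrays. The groups overlapped fully. The difference was -0.03 in siG9a minus Control (95% interval -0.24 to 0.19) and 0.01 in siGLP minus Control (95% interval -0.22 to 0.25). The sign of these values turned with the array left out, from -0.11 to 0.054 in siG9a and from -0.088 to 0.12 in siGLP. The arrays measure the transcript and not the protein or its activity.

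Arrays of both groups did not overlap for 3 lower and 1 higher of the 10 genes in siG9a minus Control (background 11.7% and 14.0% of all genes). The counts were 3 lower and 2 higher in siGLP minus Control (16.9% and 17.4%). They were 4 lower and 3 higher in siGLP minus siG9a (14.2% and 12.1%). The 4 lower ones there were Cnn2, Cnn3, Myl9 and Tpm1, and the 3 higher ones Cnn1, Tagln and Actg2. Among the genes best known from smooth muscle, Cnn1, Tagln and Actg2 were thus higher in siGLP than in siG9a, while Acta2 overlapped (difference 0.05). The Myl9 arrays were lower in siGLP, but its difference of -0.27 did not pass (95% interval -0.61 to 0.08, limma adjusted p = 0.514). Of these genes only Cnn1 and Tagln passed, so a change in both directions is not shown for them.

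Patterns over the 7 arrays were compared by the root mean square difference of log2 values, each gene centred on its own mean, among genes above the median level. For the 3 genes with a range over 0.5 (Cnn1, Tagln and Myl9) the 3 nearest genes that are not among the 10 were listed. Nearest to Cnn1 were Rtca, an RNA cyclase (0.134), the tetraspanin gene Tspan6 (0.147) and Smim11 (0.154), which differed from Control in siG9a by -0.94, -0.82 and -1.01. Nearest to Tagln were the chaperone gene Dnajc9 (0.066), Twf1, which encodes twinfilin 1, a binder of actin monomers (0.074), and the decapping factor gene Dcp1a (0.075), at -0.76, -0.74 and -0.68 in siG9a. Within the 10 genes, Tagln was nearest to Cnn1 (0.221, rank 12 among all 22179 other genes), and Cnn1 was nearest to Tagln (rank 162). Nearest to Myl9 were Slc27a3 (0.071), Lat (0.071) and Adgrl3 (0.072), and its nearest among the 10 was Cnn2 (0.164, rank 988).

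The rest of the pathway was described through lists drawn from general knowledge, with earlier results of these data known. Their counts are thus a description and not independent evidence. Of 15 genes listed as coactivators and partners of SRF, 0 passed in any comparison (limma). Their medians were 0.030 in siG9a minus Control and -0.043 in siGLP minus Control. An unadjusted p under 0.05 was reached by 2 lower and 0 higher in siG9a minus Control (background 4.57% and 5.95% of all genes), by 0 lower and 1 higher in siGLP minus Control (4.13% and 4.51%), and by 1 lower and 1 higher in siGLP minus siG9a (6.57% and 5.87%; median 0.043). Counts this small in 15 genes are too few to be set apart from the background. The lower ones in siG9a were Mical2, an oxidase of actin monomers that promotes MRTF activity (-0.34, SE 0.092), and Cdc42ep3 (-0.32, SE 0.083). Cdc42ep3 is an organiser of actin filaments, so the name of the list describes it only loosely. Mrtfa, the gene of MRTF-A, differed by 0.12 in siG9a, averaging 8.11 against 7.99 in Control, and by 0.19 in siGLP, averaging 8.18 (limma adjusted p = 0.606 and 0.561).

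Of 29 other cytoskeletal targets of SRF and MRTF, 0 passed in any comparison (limma). In siGLP 22 of 29 lay below Control (median -0.075), against 49.2% of all genes. An unadjusted p under 0.05 was reached there by 5 lower and 0 higher (background 4.13% and 4.51% of all genes). In siG9a minus Control 15 of 29 lay lower (median -0.012, against 48.0% of all genes), and it was reached by 4 lower and 4 higher (4.57% and 5.95%). In siGLP minus siG9a 20 of 29 lay lower (median -0.090, against 51.4% of all genes), and it was reached by 10 lower and 2 higher (6.57% and 5.87%). The comparisons share arrays, so these counts are not independent. Vcl, the gene of vinculin, which links integrins to actin, averaged 10.34 in siGLP and 10.90 in Control (-0.55, SE 0.10; limma adjusted p = 0.197), with 10.83 in siG9a. Sh3bgrl3, the gene of a small protein with a thioredoxin fold, had the smallest p of the list in siG9a minus Control, averaging 11.21 in siG9a and 10.80 in Control (0.40, SE 0.080; limma adjusted p = 0.157), with 10.96 in siGLP. Myh10, a nonmuscle myosin heavy chain gene, averaged 7.88 in siG9a and 8.44 in Control (-0.56, SE 0.11; limma adjusted p = 0.157), with 8.37 in siGLP. Nexn, the gene of the filament protein nexilin, differed by -0.33 in siG9a (SE 0.076) and -0.22 in siGLP (SE 0.084). Tgfb1i1, the gene of the focal adhesion protein Hic-5, differed by -0.29 in siGLP minus Control (SE 0.093), and Itga5, an integrin gene, by -0.35 in siGLP minus siG9a (SE 0.089).

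**Figure D4:**
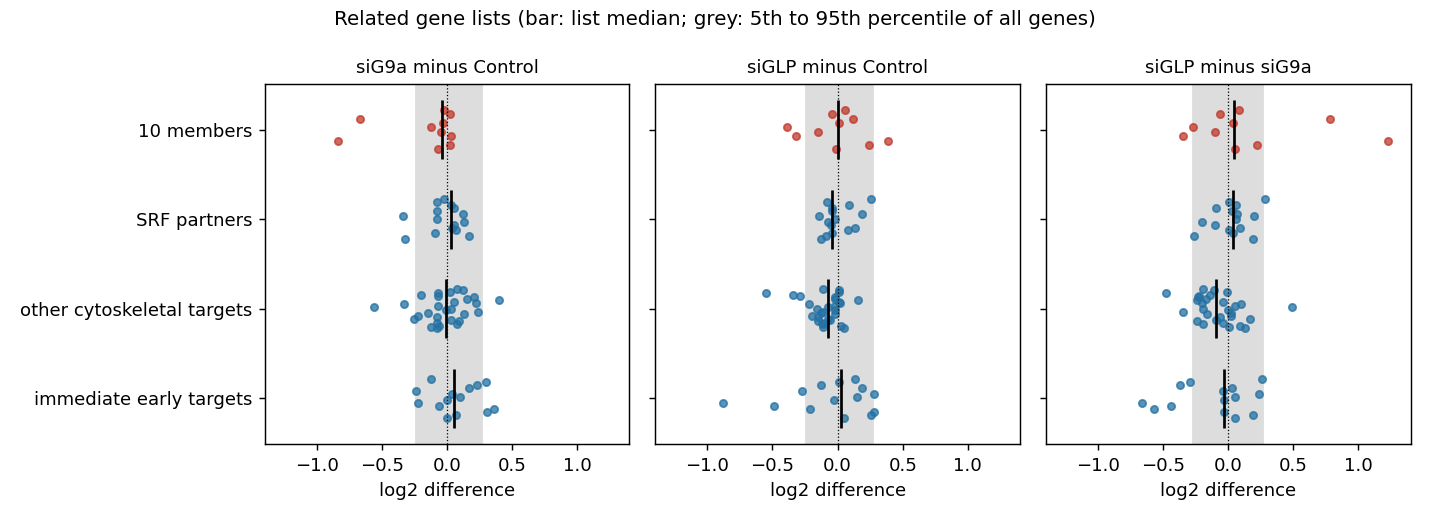
Log2 differences of the 10 genes (red) and of 3 related lists (blue), a point per gene, a black bar at each list's median and a grey band from the 5th to the 95th percentile of all genes, with 1 panel per comparison. All list medians lie within 0.1 of 0, and Cnn1 and Tagln stand apart from the other 8 genes in the outer panels.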

How the data were processed

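The values deposited were log2 signals of probe sets on 7 arrays, made by the authors with RMA and Partek per the submitters' processing notes, without versions. The log2 scale was taken from the range of the values. RMA evens the distributions between arrays, so differences are relative to the bulk of transcripts. Of 33649 probe sets, 23521 had 1 gene symbol in the platform annotation, 1814 several and 8314 none. Symbols were updated through gene numbers to RefSeq (GRCm38.p6; 23328 matched), and the probe set with the highest mean was kept for each of 22180 genes. Differences were tested on log2 values with limma 3.58.1 in R 4.3.3 (lmFit, eBayes, two-sided), all 7 arrays in 1 fit with 4 residual degrees of freedom, and called at a Benjamini-Hochberg adjusted p under 0.05 over all genes. The test was checked on simulated data.

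The 10 genes and all lists were chosen with earlier results of these data known, and 1 list is not reported here. The named genes are the 10, the 2 targeted genes, up to 3 genes of each list and comparison with the smallest p, and the nearest genes by pattern. The MCAT element was added after the data were seen, as was naming the remaining family members, Mrtfa in siG9a, and smooth muscle markers by level. Scan dates were not analysed here, and no column of another series was present. The alternatives were filters on level, further normalization, other variance moderation, fewer groups or arrays in the fit, the mean over probe sets, and the replicate number as a block.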

Additional observations from a re-analysis of the deposited data

How the results depend on the processing

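Leaving out genes below the 30th percentile of level raised the number of genes called by limma to 30 in siG9a minus Control and 171 in siGLP minus siG9a, and leaving out those below the median raised it to 148, 21 in siGLP minus Control, and 350 (6, 1 and 52 as reported). Trended, robust moderation gave 100, 23 and 304. With those below the median left out 2 of the 10 genes passed in siG9a minus Control, and with trended, robust moderation 1 (Tagln). With only the 2 groups compared in the fit, and with the replicate number as a block, 0 genes and so 0 of the 10 passed in each comparison (limma; 1749 to 2620 genes at an unadjusted p under 0.05). Leaving out 1 array gave 0 genes in siG9a minus Control, 0 to 1 in siGLP minus Control and 0 in siGLP minus siG9a (1752 to 2962 at an unadjusted p under 0.05), and 0 of the 10 genes in each. The median of the 10 then ranged from -0.051 to 0.13 in siGLP minus siG9a. Leaving out a Control array in that comparison, or a siGLP array in siG9a minus Control, gives the fit with only the 2 groups compared.

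The replicate numbers were not taken as pairing the arrays, because the labels do not say so, but pairing is not excluded. Deviations of same-numbered arrays from their group means correlated at 0.005 to 0.172 (6 pairs, across genes), all positive. Those of different-numbered arrays correlated at -0.172 to 0.149, and Control 2 correlated best with siG9a 3 (0.149). In a group of 2 arrays the deviations mirror each other, so the pairs are not independent and cannot decide the question. With the replicate block Cnn1 stood at 1.11 (limma adjusted p = 0.178) and Tagln at 0.71 (0.178) in siGLP minus siG9a. Srf turned to 0.0039 in siG9a minus Control. Only siG9a has a replicate 3, so the block fits siG9a 3 on its own, and these differences equal those without it. The shifts in these differences thus come from siG9a 3 and say nothing about pairing. Quantile normalization turned Tpm2 in siG9a minus Control to 0.0029 and Acta2 in siGLP minus Control to 0.0060, and cyclic loess turned the same Acta2 value to 0.0078.

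Leaving out 1 array turned the sign of differences near 0. In siG9a minus Control the ranges were -0.053 to 0.10 for Actg2, -0.28 to 0.036 for Myl9, -0.14 to 0.013 for Acta2 and -0.11 to 0.054 for Srf. In siGLP minus Control they were -0.088 to 0.12 for Srf, -0.092 to 0.065 for Acta2 and -0.063 to 0.18 for Tpm2. In siGLP minus siG9a they were -0.018 to 0.12 for Acta2, -0.041 to 0.20 for Tpm2 and -0.061 to 0.14 for Srf. The cause of these turns was not tested. Cnn1, Cnn2, Cnn3, Tagln and Tpm1 kept the sign of each reported difference under all 15 alternatives, Tpm1 with a value as small as -0.00095 in siGLP minus Control. Several alternatives, such as the filters on level and other variance moderation, leave the difference itself unchanged and cannot turn its sign. The same holds for leaving out the group not compared or 1 of its arrays. The 15 alternatives are thus not separate checks.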

Other observations

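Many immediate early targets of SRF respond to growth factor signals through the ternary complex factors, partners of SRF other than the MRTFs. The list of these targets, which also holds Ccn1, Ccn2 and Ankrd1, was not divided by partner. Of 14 measured, 0 passed in any comparison (limma), and an unadjusted p under 0.05 was reached by 1 lower and 3 higher in siG9a minus Control (background 4.57% and 5.95% of all genes), by 3 lower and 2 higher in siGLP minus Control (4.13% and 4.51%), and by 5 lower and 0 higher in siGLP minus siG9a (6.57% and 5.87%). Egr2, a zinc finger factor, averaged 5.96 in siGLP and 6.84 in Control (-0.88, SE 0.21; limma adjusted p = 0.292), with 6.62 in siG9a. Dusp1, a phosphatase of MAP kinases, averaged 7.97 in siGLP and 8.53 in siG9a (-0.57, SE 0.14; limma adjusted p = 0.173), with 8.17 in Control. Klf6 differed by -0.37 in siGLP minus siG9a (SE 0.094), and Mcl1, an inhibitor of apoptosis, by 0.30 in siG9a minus Control (SE 0.089).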
